A study of Homo sapiens with 2 samples.

Results

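Aminoacyl-tRNA synthetases, the enzymes that load each amino acid onto its transfer RNA, were followed in the colorectal cancer line SW48 after treatment with AKBA (acetyl-11-keto-β-boswellic acid), a compound from the resin of Boswellia trees. SW48 is an established human cell line. The set held 35 genes chosen by symbol, 19 for cytosolic enzymes (names ending in 1, with FARSA and FARSB) and 16 for mitochondrial enzymes (names ending in 2), of 18852 genes with a named probe in all. Of these, 34 had a named probe, 39 probes together, 32 were detected on both arrays and 2 on neither. AKBA was given at 20 µM for 6 days, and the control is described as 0.1% dimethyl sulfoxide vehicle in the treatment protocol but as not treated in the source name, so vehicle and compound cannot be told apart if the latter holds. Each group was 1 Illumina bead array, so no value has a replicate check or a test, and higher and lower refer to these 2 arrays.

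In human cells nearly every amino acid has a pair of synthetases, a cytosolic enzyme for translation on cytosolic ribosomes and a mitochondrial one for the proteins that the mitochondrial genome encodes, both encoded in the nucleus. Several cytosolic enzymes sit together in a multi-synthetase complex. Many genes of the cytosolic enzymes are known targets of ATF4, the transcription factor that is translated when amino acids run short or eIF2 is phosphorylated, and ATF4 with its C/EBP partners binds composite elements of the form TGATGNAA. Colon cancer cells, like other growing cells, need high charging capacity for protein synthesis.

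The AKBA array was dimmer, with a median bead signal of 78.3 against 80.9 and a mean of 365 against 425, and 11329 and 12389 of 48803 probes were detected at a detection p under 0.01. Signals are given as deposited, in arbitrary units, and cannot be compared between probes. Differences are log2 AKBA minus control after background correction and quantile normalization, relative to the median of the 8639 genes detected on at least 1 array, which itself stood at -0.02. Their standard deviation over those genes was 0.32. Where a gene had several named probes, the brightest represents it, and for 1677 genes with further probes these deviated from the brightest one by 0.20 (median, log2). Of 10 intestinal epithelial markers 5 were detected, among them EPCAM, CDH1 and the intestinal transcription factor CDX2, while KRT20, CDX1, VIL1, CDH17 and LGALS4 were not. Of the leukocyte markers with a probe, 1 of 4 was detected (CD68, with signals of 472 and 610, 1.73-fold higher with AKBA). PTPRC, CD3E and CD14 were not detected, and 0 of 5 fibroblast markers were. The source of the CD68 signal in this cell line was not tested.

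The median of the cytosolic enzymes stood above the median gene and that of the mitochondrial ones slightly below it. Of 18 detected cytosolic synthetases, 13 were above the median gene, which divides all detected genes evenly by construction, and the median difference was 0.29. Of 14 detected mitochondrial synthetases, 4 were above and 10 below, with a median of -0.07, so the medians lay 0.36 apart. The mitochondrial median was smaller in size than the deviation between probes of one gene (0.20). By at least 1.5-fold, 7 of the 18 cytosolic enzymes were higher with AKBA, against 3.29% of all detected genes, and 0 were lower, against 3.87%. Of the mitochondrial enzymes, 0 of 14 were higher by that fold and 1 was lower. No synthetase passed 2-fold, which 0.428% of detected genes did on the higher and 0.301% on the lower side. Genes are not replicates of a culture, so these counts carry no p-value. In RNA of whole cultures, fewer cells that express a gene and less of its RNA per cell cannot be told apart.

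**Figure D1:**
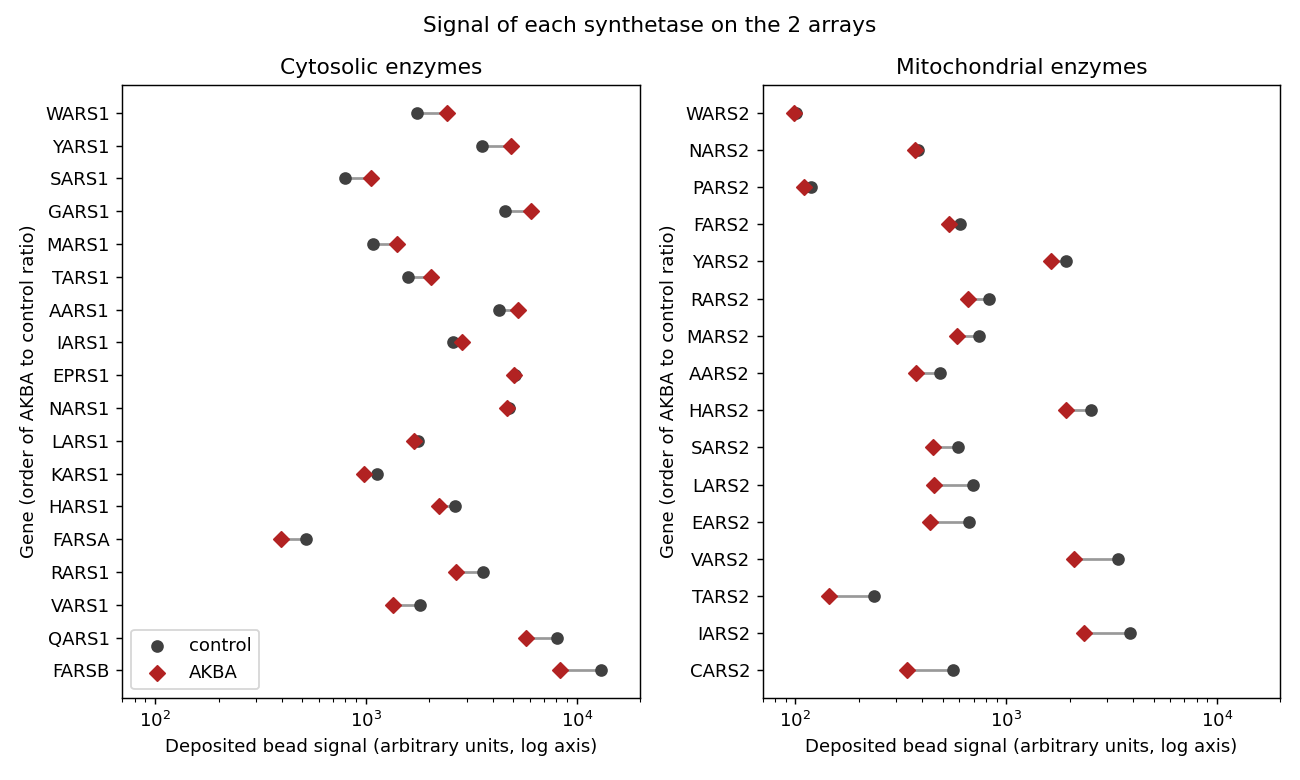
Deposited bead signal (arbitrary units, log axis) of the 34 synthetases with a named probe, 1 row per gene, on the control array (circles) and the AKBA array (diamonds). The signal of 8 cytosolic genes was higher on the AKBA array before any scaling, and that of the 14 detected mitochondrial genes was lower. Of all detected genes, 10.1% had a higher signal on the AKBA array.

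The deposited signals, before any scaling, already set the cytosolic enzymes apart from all detected genes. Among all detected genes 10.1% had a higher signal on the dimmer AKBA array, and the median ratio of AKBA to control was 0.808. A higher AKBA signal was found for 8 of the 18 cytosolic enzymes, with a median ratio of 0.982. It was found for 0 of the 14 mitochondrial ones, with a median ratio of 0.759. These mitochondrial values lay near those of all detected genes. The plot of signals by array shows the same 8 genes at the top of the cytosolic panel.

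The tryptophanyl enzyme WARS1 was furthest above the control. Its signal was 1750 in the control and 2431 with AKBA, which is 1.79-fold after normalization. A further WARS1 probe, with signals of 1180 and 1541, gave 1.70-fold, so both probes lay on the same side. WARS1 is also a classical interferon gamma response gene. SARS1, which charges serine tRNA and also serves the first step towards selenocysteine tRNA, had signals of 796 and 1057 and was 1.75-fold higher. YARS1, the tyrosyl enzyme, had 3553 and 4896 and was 1.73-fold higher. These 3 genes lay at or above the 98.8th percentile of detected genes.

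The other 4 enzymes past 1.5-fold were those for methionine, glycine, threonine and alanine. The methionyl enzyme MARS1, a member of the multi-synthetase complex, had signals of 1080 and 1410 and was 1.70-fold higher. GARS1, whose gene supplies the glycyl enzyme of both the cytosol and the mitochondria, had 4572 and 6037 and was 1.67-fold higher. TARS1, the threonyl enzyme, had 1589 and 2043 and was 1.65-fold higher. In each case the AKBA signal was the higher one although that array was dimmer as a whole. AARS1, the alanyl enzyme, which also edits mischarged serine and glycine, had 4270 and 5269 and was 1.54-fold higher. The isoleucyl enzyme IARS1 came next, with 2590 and 2854 and a fold of 1.40; its further probe was not detected on either array.

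For 4 of these genes, and for IARS1 and NARS1, the RefSeq promoter window holds a C/EBP-ATF composite sequence, and the windows are printed to show where it lies. A window covers 250 bases before to 50 after the annotated start site (RefSeq, GRCh38.p14), 5′ to 3′ on the strand of the gene, with the 8 bases that match TGATGNAA, read on either strand, in capitals. The windows are chr12:57487818-57488117 (plus strand) for MARS1, chr7:30594628-30594927 (plus strand) for GARS1, chr5:33440715-33441014 (plus strand) for TARS1, chr16:70289457-70289756 (minus strand) for AARS1, chr9:92293648-92293947 (minus strand) for IARS1 and chr18:57621787-57622086 (minus strand) for NARS1.
MARS1: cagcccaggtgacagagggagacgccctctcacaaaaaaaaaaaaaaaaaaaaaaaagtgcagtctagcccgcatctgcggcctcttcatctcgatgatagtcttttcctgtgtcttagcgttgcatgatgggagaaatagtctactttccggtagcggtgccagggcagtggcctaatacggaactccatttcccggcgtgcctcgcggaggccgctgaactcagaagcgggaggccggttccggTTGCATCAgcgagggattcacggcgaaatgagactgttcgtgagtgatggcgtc
GARS1: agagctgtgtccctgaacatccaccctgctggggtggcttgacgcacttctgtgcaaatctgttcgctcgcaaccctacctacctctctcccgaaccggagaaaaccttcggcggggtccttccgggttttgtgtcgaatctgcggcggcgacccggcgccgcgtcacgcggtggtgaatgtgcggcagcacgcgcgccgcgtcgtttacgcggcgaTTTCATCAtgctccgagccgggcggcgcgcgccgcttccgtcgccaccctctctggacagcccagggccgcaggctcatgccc
TARS1: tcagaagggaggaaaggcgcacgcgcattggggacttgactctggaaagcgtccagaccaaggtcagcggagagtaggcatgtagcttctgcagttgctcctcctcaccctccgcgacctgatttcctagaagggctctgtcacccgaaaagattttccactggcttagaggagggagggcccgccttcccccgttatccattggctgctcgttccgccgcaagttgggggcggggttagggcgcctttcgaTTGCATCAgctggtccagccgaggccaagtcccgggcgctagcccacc
AARS1: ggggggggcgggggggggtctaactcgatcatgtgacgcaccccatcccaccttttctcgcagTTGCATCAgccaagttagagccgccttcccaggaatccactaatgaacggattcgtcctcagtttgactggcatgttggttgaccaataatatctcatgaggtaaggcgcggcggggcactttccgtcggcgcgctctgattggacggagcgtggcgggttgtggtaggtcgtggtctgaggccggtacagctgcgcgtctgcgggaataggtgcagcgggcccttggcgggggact
IARS1: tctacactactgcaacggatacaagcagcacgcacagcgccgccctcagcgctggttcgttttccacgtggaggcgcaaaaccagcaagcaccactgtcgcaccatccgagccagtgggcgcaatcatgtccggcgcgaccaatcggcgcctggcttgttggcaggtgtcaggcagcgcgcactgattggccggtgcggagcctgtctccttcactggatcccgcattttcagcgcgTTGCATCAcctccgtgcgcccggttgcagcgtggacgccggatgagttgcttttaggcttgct
NARS1: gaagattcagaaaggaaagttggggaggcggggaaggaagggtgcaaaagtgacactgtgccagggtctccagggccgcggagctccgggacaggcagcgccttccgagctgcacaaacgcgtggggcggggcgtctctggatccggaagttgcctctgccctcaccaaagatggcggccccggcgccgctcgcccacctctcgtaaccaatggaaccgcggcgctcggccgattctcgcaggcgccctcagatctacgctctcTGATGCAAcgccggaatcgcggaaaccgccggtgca

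Counting the first transcribed base as 1, the match began at position -4 in MARS1, -33 in GARS1, 3 in TARS1, -187 in AARS1, -13 in IARS1 and 15 in NARS1. In 5 of the 6 windows printed it thus lay close to the start site, and in AARS1 farther upstream. The words were TTGCATCA in MARS1, TARS1, AARS1 and IARS1, TTTCATCA in GARS1 and TGATGCAA in NARS1, the first being the reverse complement of the last. CARS1, the cysteinyl enzyme, carries TTGCATCA at position -2 of one of its windows but has no named probe here, so it has no value. GARS1, TARS1 and CARS1 each have a further window without a match.

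Of the 35 members, 30 had a promoter in the RefSeq table; LARS1, VARS1, YARS1, AARS2 and VARS2 did not. TGATGNAA was found for 7 of 16 cytosolic genes (43.8%) and for 1 of 14 mitochondrial genes (7.14%), against 4.46% of 27305 genes with a promoter in the table. The mitochondrial gene was YARS2, with TGATGGAA at position -197 and a difference of 0.13. The stricter TGATGCAA, whose matches are all matches to TGATGNAA as well, was found for 6 of 16 cytosolic genes (37.5%), 0 of 14 mitochondrial genes and 1.08% of all genes. TGACGTCA, the cyclic AMP response element, was found in 0 of 16 and 0 of 14, against 2.25% of all genes. Among the 7182 detected genes with a promoter, the shares were 2.59% for TGATGNAA, 0.78% for TGATGCAA and 4.02% for TGACGTCA. Both strands were searched in each case, and any window of a gene counted.

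The 6 detected cytosolic genes with TGATGNAA had a median difference of 0.67 and all 6 stood above the median gene. The 9 detected cytosolic genes with a window but no match had a median of 0.08, yet WARS1 and SARS1, the highest members, were among them. Outside the synthetases, 179 detected genes had TGATGNAA in a window, with a median difference of 0.03, and 11 of them (6.15%) were at least 1.5-fold higher with AKBA, against 3.05% of the 6976 without. For TGATGCAA it was 6 of 51 (11.8%), with a median difference of 0.10, against 3.07% of the 7104 without. The 51 genes are part of the 179, and the 6 are among the 11, so these comparisons are not separate. A match describes these letters in this window and is not evidence of binding in SW48.

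**Figure D2:**
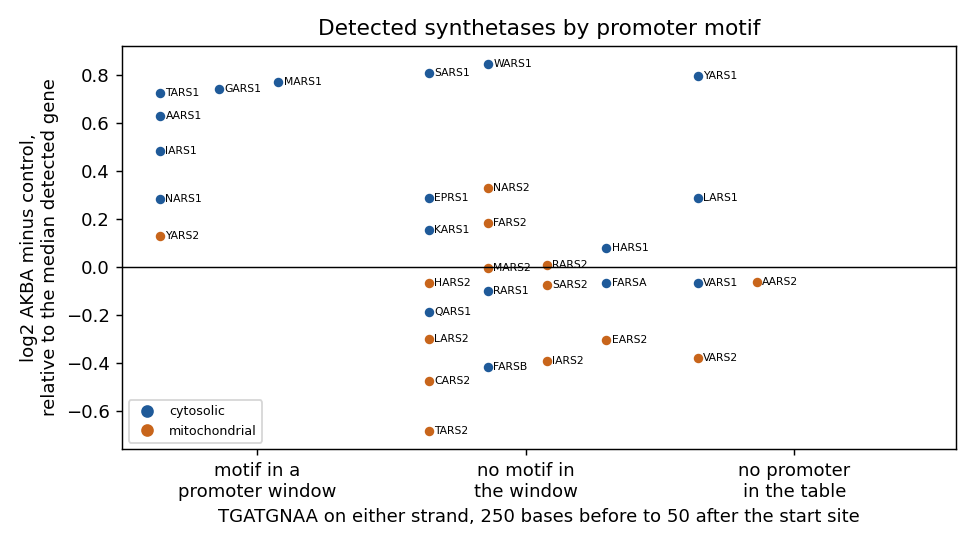
Difference between the arrays (log2 AKBA minus control, relative to the median detected gene) of the 32 detected synthetases, grouped by whether a RefSeq promoter window holds TGATGNAA, and coloured by compartment. The 6 cytosolic genes with a match lie between 0.28 and 0.77, and WARS1 and SARS1 lie above them without a match.

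The middle of the cytosolic set was made up of enzymes with smaller differences, in the same direction. EPRS1, a fused protein that charges both glutamate and proline tRNAs, had signals of 5103 and 5056 and a difference of 0.29. LARS1, the leucyl enzyme and a proposed leucine sensor for mTORC1, had 1771 and 1682 and a difference of 0.29. NARS1, the asparaginyl enzyme, had 4787 and 4661 and a difference of 0.28. Their signals were nearly level between the arrays, and the positive differences arise relative to the dimmer AKBA array. KARS1, the lysyl enzyme, whose transcripts encode both the cytosolic and the mitochondrial form, stood at 0.15, and the histidyl enzyme HARS1 at 0.08. These last values were smaller than the deviation between probes of one gene.

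The cytosolic enzymes at the low end were those for phenylalanine, glutamine, arginine and valine. FARSB, the beta subunit of the phenylalanyl enzyme, had signals of 13039 and 8297 and a difference of -0.42, the lowest of the cytosolic set. FARSA, the alpha subunit of the same heterotetramer, had 521 and 397 and stood at -0.07. The subunits of this one enzyme thus had differences 0.35 apart. QARS1, the glutaminyl enzyme, had 8092 and 5750 and a difference of -0.19, the arginyl enzyme RARS1 stood at -0.10 and the valyl enzyme VARS1 at -0.07. Further probes of FARSB and VARS1 were not detected and check neither value.

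**Figure D3:**
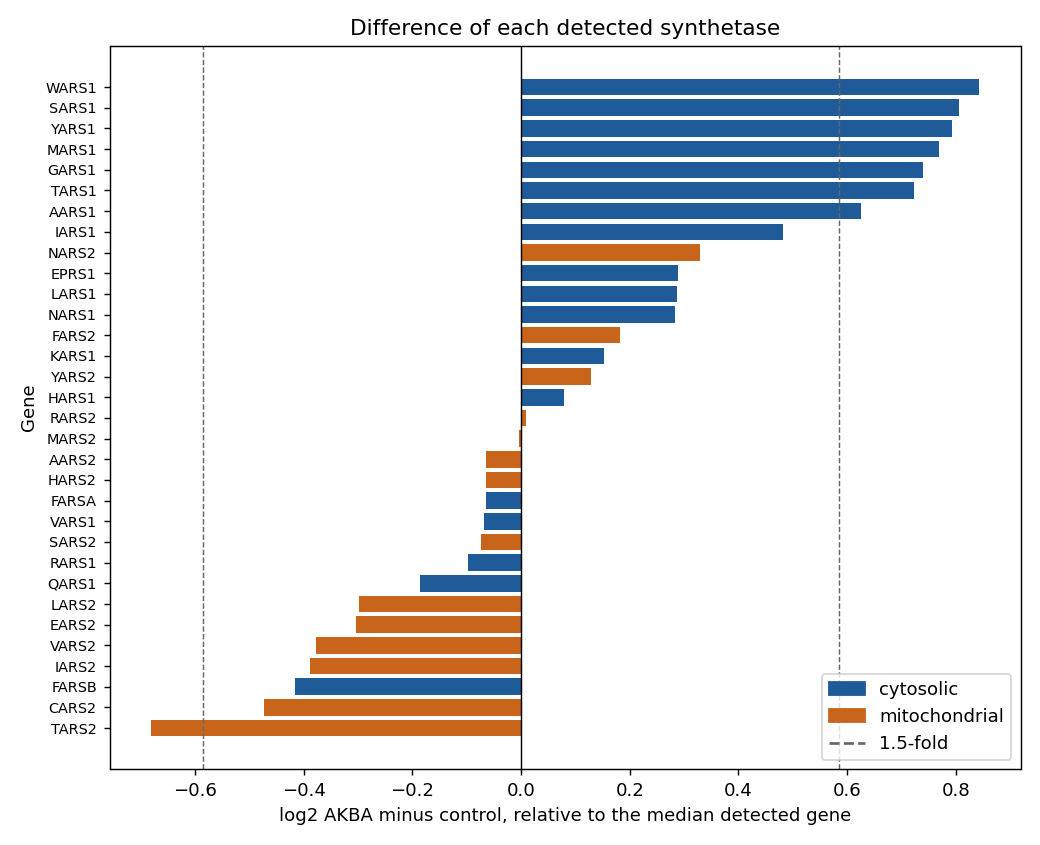
Difference between the arrays (log2 AKBA minus control, relative to the median detected gene) of each of the 32 detected synthetases, with cytosolic and mitochondrial enzymes in separate colours and dashed lines at 1.5-fold. The 7 genes beyond the upper line, WARS1 to AARS1, are cytosolic, and TARS2 at -0.68 is beyond the lower line.

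Groups of cytosolic enzymes that biochemistry defines were compared next. Of 7 detected members of the multi-synthetase complex, 1 (MARS1) was at least 1.5-fold higher and their median was 0.29, while 6 of 11 enzymes outside it were, with a median of 0.63. The share among all detected genes was 3.29%, and neither this difference between subsets nor the next was tested. The complex itself ranged from -0.19 for QARS1 to 0.77 for MARS1. By catalytic fold, 3 of 8 class I enzymes were at least 1.5-fold higher with a median of 0.38, and 4 of 9 class II enzymes with a median of 0.28, leaving out EPRS1, which has a domain of each class. The scaffold protein AIMP1 of the complex was detected on neither array, and AIMP2 and EEF1E1 have no named probe here.

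A split by the enzymes commonly listed as ATF4 targets separated the set without overlap. The 11 detected genes of that list (AARS1, EPRS1, GARS1, IARS1, LARS1, MARS1, NARS1, SARS1, TARS1, WARS1 and YARS1) ranged from 0.28 to 0.84 with a median of 0.72, and 7 of them were at least 1.5-fold higher. The 7 others (FARSA, FARSB, HARS1, KARS1, QARS1, RARS1 and VARS1) ranged from -0.42 to 0.15 with a median of -0.07, and 0 were. The median of the mitochondrial enzymes was likewise -0.07. Of all detected genes, 3.29% were at least 1.5-fold higher, and NARS1, the lowest of the ATF4 list, lay at their 84.6th percentile. The list was drawn from general knowledge with earlier results of these arrays known. Neither the separation nor its direction is thus independent evidence. On the same arrays ATF4 itself was 1.44-fold higher, and its targets TRIB3 and ASNS were 4.02-fold and 3.74-fold higher, so the synthetase differences were smaller than those of TRIB3 and ASNS.

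**Figure D4:**
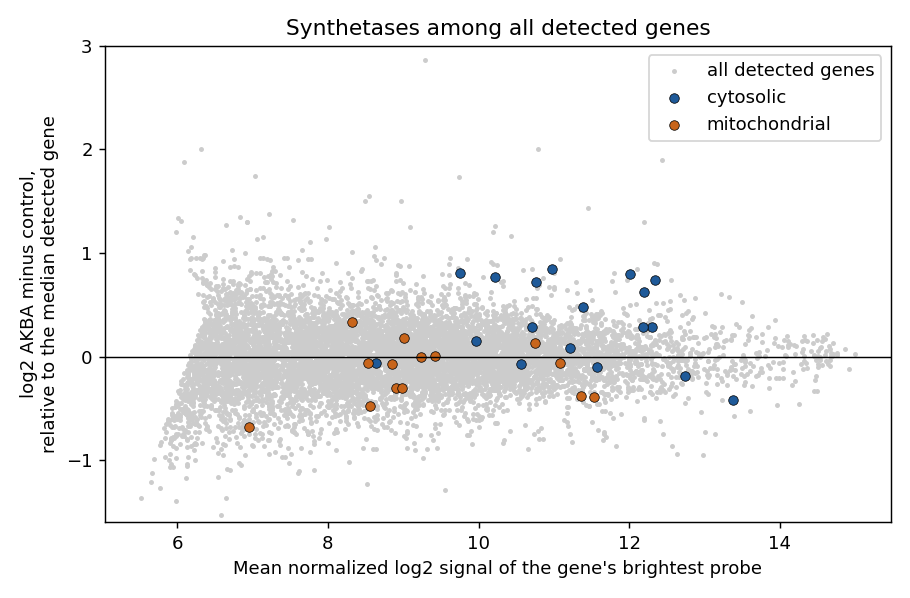
Difference between the arrays (log2 AKBA minus control, relative to the median detected gene) against mean normalized log2 signal of the brightest probe, for all 8639 detected genes (grey) and the synthetases (coloured). The 7 cytosolic genes past 1.5-fold lie among the brighter probes, where the grey cloud is narrower.

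Most synthetase probes were bright, which matters because dim probes scatter more. Among the 4319 genes brighter than the median detected gene, 1.99% were at least 1.5-fold higher and 1.74% at least 1.5-fold lower. In that subset 17 cytosolic enzymes remained, 7 of them past 1.5-fold on the higher side, and 9 mitochondrial ones, with 0 past it on either side. The cytosolic and mitochondrial medians there were 0.28 and -0.07.

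The mitochondrial enzymes showed their lowest values for threonine, cysteine, isoleucine and valine. TARS2, the mitochondrial threonyl enzyme, had signals of 235 and 144 and a difference of -0.68, or 1.60-fold lower, but the AKBA signal is close to the detection limit of that array (lowest detected signal 141), which leaves the size uncertain. CARS2 had 563 and 337 and a difference of -0.47. IARS2 had 3852 and 2347 and a difference of -0.39. These genes were lower on the AKBA array by more than its general dimming. VARS2 had 3409 and 2098 and a difference of -0.38. EARS2, the mitochondrial glutamyl enzyme, which also charges the glutamine tRNA with glutamate before a transamidase corrects it, had 663 and 434 and a difference of -0.30. LARS2, with 693 and 455, likewise stood at -0.30.

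Past a difference of 0.32 on the log2 scale, 4 of the 14 mitochondrial enzymes were lower (TARS2, CARS2, IARS2 and VARS2), against 13.3% of all detected genes, and 1 was higher, against 12.7%. The latter was NARS2, the asparaginyl enzyme, with signals of 381 and 370 and a difference of 0.33. FARS2, the phenylalanyl enzyme, stood at 0.18 and YARS2 at 0.13. The remaining 5 detected genes lay near the median gene: RARS2 at 0.01, MARS2 at -0.0036, AARS2 at -0.06, HARS2 at -0.06 and SARS2 at -0.07. A dimmer MARS2 probe, with signals of 153 and 141 near the detection limit, gave 0.17.

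PARS2 and WARS2, the mitochondrial enzymes for proline and tryptophan, were detected on neither array. PARS2 signals were 118 and 110 (detection p 0.0171 and 0.0145). Those of WARS2 were 101 and 98.4 (detection p 0.0435 and 0.0343). No fold is given for either gene.

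Set side by side, enzymes for the same amino acid mostly differed between compartments. In 14 pairings both enzymes were detected, and the cytosolic one had the higher difference in 10, with a median gap of 0.59 on the log2 scale. FARS2 was paired with both FARSA and FARSB, so the pairings are not all separate. Threonine showed the widest gap, 1.40 between TARS1 and TARS2, part of which rests on the dim TARS2 probe. Serine had a gap of 0.88, isoleucine 0.87, methionine 0.77, alanine 0.69, tyrosine 0.67, glutamate 0.59 and leucine 0.59. Valine and histidine had gaps of 0.31 and 0.14. The order was the other way for asparagine, at -0.05, for arginine, at -0.11, and for phenylalanine, where the gaps of FARSA and FARSB to FARS2 were -0.25 and -0.60. The gaps for histidine, asparagine and arginine were smaller than the deviation between probes of one gene.

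**Figure D5:**
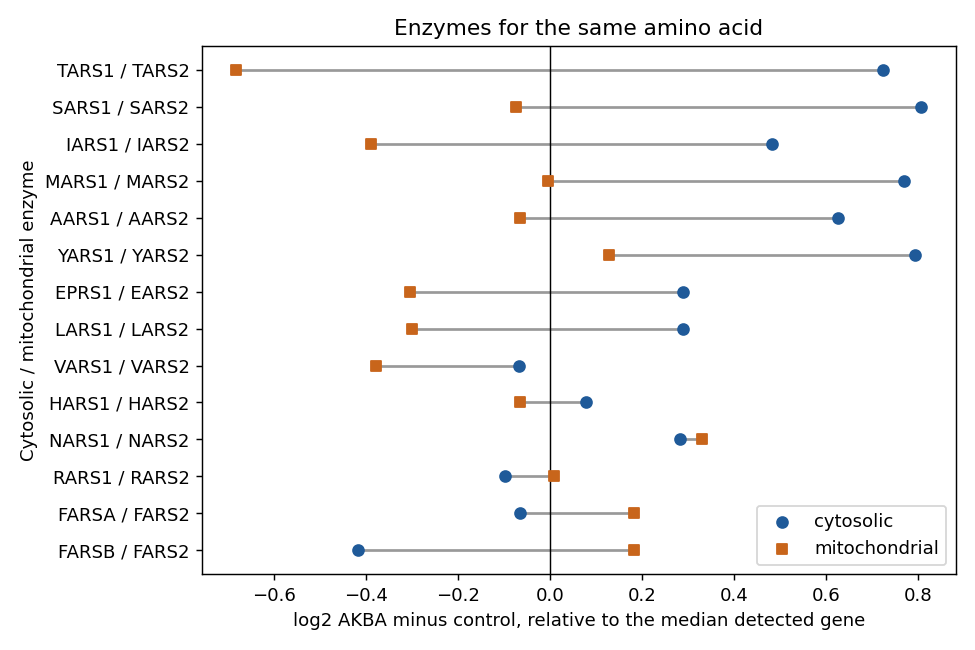
Differences between the arrays (log2 AKBA minus control, relative to the median detected gene) of the cytosolic (circles) and mitochondrial (squares) enzyme for the same amino acid, in 14 pairings with both detected. The cytosolic enzyme lies to the right in 10 pairings, with the widest gap for TARS1 and TARS2.

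HARS1 and HARS2, the histidyl pair, are neighbours that run in opposite directions, with annotated start sites 85 bases apart and 184 bases of promoter window in common. Their differences were 0.08 and -0.06. No other pair of members shared a window in the RefSeq table.

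Other genes that handle tRNAs did not share a uniform direction. Of 18 detected genes of tRNA maturation and export, 12 stood above the median gene, the list median was 0.06, and 2 were at least 1.5-fold higher and 0 lower, where 3.29% and 3.87% of all detected genes were. XPOT, the exportin that carries tRNAs out of the nucleus, had signals of 459 and 798 and was 2.38-fold higher, more than any synthetase. TSEN15, a subunit of the tRNA splicing endonuclease, had 1180 and 1506 and was 1.66-fold higher. The other genes named by rule were the 3′ processing nuclease ELAC2 at -0.35 and the ribonuclease P subunits POP5 at 0.32, RPP38 at 0.28 and POP4 at 0.24. In the selenocysteine and editing list, SEPSECS and PSTK, which convert seryl-tRNA to selenocysteinyl-tRNA, were 1.57-fold and 1.40-fold higher, with control signals of 170 and 173 near the lowest detected there, 138, so their sizes are uncertain. DTD1, which removes D-amino acids from tRNAs, stood at 0.07.

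The factors that use charged tRNAs were listed separately by compartment, and in both lists most detected genes stood above the median gene. Of the 5 cytosolic elongation factor genes, 5 stood above the median gene, 0 past 1.5-fold, with EEF1G at 0.32, EEF2 at 0.28, EEF1D at 0.25 and EEF1B2 and EEF1A1 at 0.02. The values of EEF1B2 and EEF1A1 were no larger than the shift of the median gene itself (-0.02), so their side depends on that reference. EEF1A1 had the highest signal of all detected genes on both arrays, a rank that quantile normalization holds level. Of 11 detected genes of mitochondrial translation, 7 stood above, the median was 0.09, 0 were at least 1.5-fold higher and 1 was lower, against the same shares of 3.29% and 3.87%. That gene was the release factor MTRF1, with a signal of 165 in the control and of 104 with AKBA, where it was not detected. Its difference relative to the median gene was -0.88. With the AKBA side set at the lowest detected signal, the same difference, now control minus AKBA, was 0.0017, so no size was measured. MTRF1L, its paralogue, stood at -0.56 and GATC, a subunit of the transamidase that completes mitochondrial glutaminyl-tRNA, at 0.51, with signals of 202 and 216. GFM1, an elongation factor, stood at 0.25, the initiation factor MTIF2 at 0.17, the transamidase subunit GATB at 0.13 and MTFMT, which formylates the initiator methionyl-tRNA, at -0.14.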

How the data were processed

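Total RNA of 2 SW48 samples was amplified, labelled and hybridised to Illumina bead arrays, per the labels. The deposited intensity of a probe is its unscaled mean bead signal without background subtraction, judged from the values, and the deposited detection p-value compares a probe with the control beads of its array. The authors' processed intensity values were linear in those signals, with slopes of 1.00 and 1.20, intercepts of -74.7 and -86.5, equal means of 352 and medians of 6.50 and 7.63, so scale, centring and direction were settled. For the software, a name is not given in the sources at hand.

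Signals were normalized with neqc of limma 3.58.1 in R 4.3.3 (background inferred from the detection p, normexp with an offset of 16, quantiles, log2). Tables and figures used Python 3.11.15, numpy 2.4.6, pandas 2.3.3 and matplotlib 3.10.9. The platform table gave a single gene to 28098 probes, more than 1 to 13 and lists no gene for 20692, while 28059 probes matched RefSeq (GRCh38.p14) by Entrez identifier, among them the 39 of the synthetases. A gene was represented by its brightest probe and compared if detected at p under 0.01 on at least 1 array. With 1 array per group no test was possible, and the number of arrays limits the precision. All members are accounted for; of 5 related lists, up to 6 genes detected on both arrays with the largest differences were named, and ATF4, TRIB3 and ASNS. A gene count of 5 or fewer outside that rule was named after its values were seen. Members, lists and motifs were chosen with earlier results of these data known. The pipeline was tested on simulated data. Alternatives were another offset, no background correction, median scaling, loess, the authors' processed values (floored at 16 before log2), other detection limits, the mean over probes, values not relative to the median gene, other folds and, chosen after seeing the data, brighter genes only.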

Additional observations from a re-analysis of the deposited data

How the results depend on the processing

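Under the 12 alternatives, the cytosolic median ranged from 0.26, when not relative to the median gene, to 0.34. The mitochondrial median ranged from -0.09 to -0.07 and the gap between the medians from 0.35 to 0.43. The cytosolic enzyme was the higher one in 69.2% (9 of 13, at a detection p under 0.001) to 78.6% of pairings (11 of 14, with median scaling or the authors' processed values). Median scaling and the authors' processed values shifted the median detected gene to -0.32 and -0.11, and values are relative to it. Of 32 members, 30 kept their sign under every alternative that gave them a value; RARS2 and MARS2, near 0, did not. The count of mitochondrial enzymes at least 1.5-fold lower, 1 (TARS2), was 0 with an offset of 50, without background correction, at a detection p under 0.001 and among brighter genes, and TARS2 stood at -0.46 without background correction. Past 0.32 on the log2 scale, 8 of 18 cytosolic enzymes and 1 of 14 mitochondrial ones were higher, against 12.7% of all detected genes. On the lower side were 4 mitochondrial enzymes and 1 cytosolic enzyme (FARSB), against 13.3%. At 2-fold, 0 cytosolic enzymes were higher and 0 mitochondrial ones lower, against 0.428% and 0.301% of detected genes. No paired analysis was possible because each group has 1 array. Detection limits what can be said of PARS2 and WARS2, and signals near the limit make the sizes for TARS2, SEPSECS, PSTK and GATC uncertain.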
